A study of Raphidocelis subcapitata with 270 samples.

Results

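The 100 genes described here are those of Raphidocelis subcapitata, a green alga, with the highest median ratio, over 12 chemicals, of messenger RNA at the exposure level named D1 to that in solvent controls. They were chosen from measured values. In each of 12 chemicals, the ratio at D1 was log2((mean CPM at D1 + 2)/(mean CPM in DMSO + 2)), where CPM is a gene's count as a share of the library total, on the usual CPM scale. Of the 13429 genes counted, 9381 had a DMSO mean of at least 5 CPM, and the 100 with the highest median ratio over the 12 chemicals are the members. The 3 members just inside this limit, ranked 98 to 100, had median ratios of 0.51, and the next 3 genes outside it had 0.50. Gene names are not paired with the identifiers in these files, so members are given by identifier and nothing is said of their function.

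Raphidocelis subcapitata is a unicellular freshwater alga that grows fast in suspension and is a standard organism for testing the toxicity of chemicals to primary producers. Its cells live by photosynthesis, and each library holds the pooled RNA of very many cells. In such bulk RNA, a change in the share of cells that express a gene cannot be told apart from a change in RNA per cell. CPM is a share of a library, so a higher CPM does not give the amount per cell.

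Cultures in exponential growth were exposed in multi-well plates for 24 h under constant light, and their RNA was read from the 3′ ends of transcripts. The study used 12 chemicals in 6 control sets of 2, each with 3 DMSO libraries that both chemicals of the set share. Each chemical has 7 levels named D1 to D7, with 3 libraries per level lettered A, B and C, which gives 270 libraries with 18 of DMSO and 36 of D1. The concentration of each level and the end of the dilution series that D1 stands for are not in the labels, so the levels are treated as named groups. As the labels number the chemicals, the first and the second chemical of the sets are 1(2H)-Phthalazinone and Gabapentin, Metribuzin-DA and 2-tert-butyl-4-methoxyphenol, Hydrochlorothiazide and 4-chlorophenyl methyl sulfone, Cetirizine Hydrochloride and Fipronil carboxamide, Fexofenadine and cis-nonachlordane, and Metolachlor OA and 3,4-Dichlorophenyl isocyanate. No strain, plate position or batch was used here. The labels do not say that the 3 libraries of a group came from separate cultures, and p-values then measure no more than the spread among these libraries, possibly a technical one.

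Library totals ran from 596651 to 1909938 counts with a median of 1083755. The median total was 1047636 in DMSO, 1137664 at D1, and between 1056404 and 1105893 at the other levels.

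The members' mean level in DMSO ran from 5.54 to 933 CPM with a median of 34.3 CPM, against 39.8 CPM over the 9381 kept genes. Of the members, 33 lay under 20 CPM, 45 between 20 and 100 CPM, and 22 at 100 CPM or more. Among kept genes 26.8% lay under 20 CPM and 22.1% at 100 CPM or more, so the choice took genes from each of these ranges.

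At D1, the values that chose the members ran as follows, given as a description without a test. The median ratio over the 12 chemicals was between 0.51 and 0.96 on the log2 scale for all 100 members. The ratio was above 0 in all 12 chemicals for 47 members, in 11 for 27, in 10 for 15, in 9 for 9 and in 8 for 2. The label of these genes as higher at D1 in most chemicals therefore describes each member, but 53 members lay below their DMSO mean in at least 1 chemical.

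**Figure D1:**
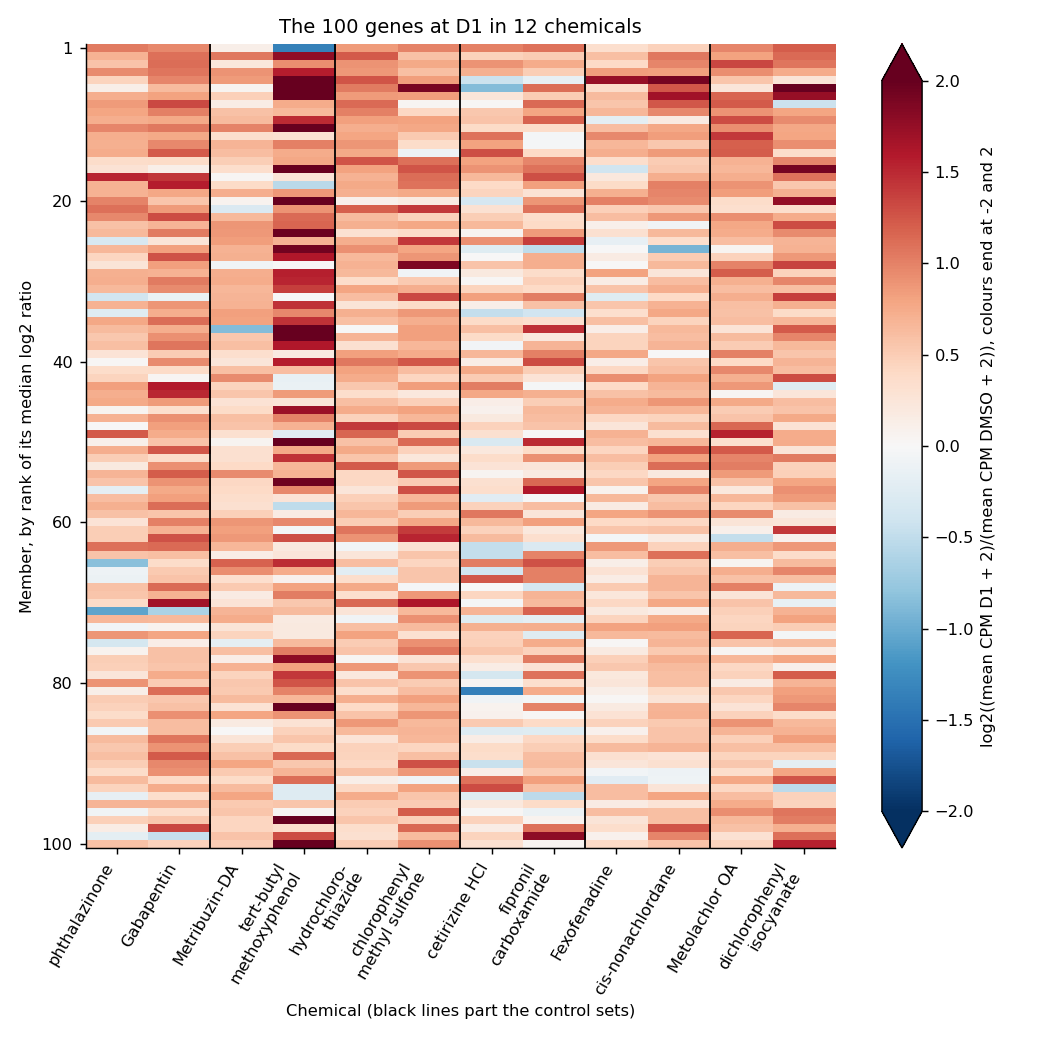
Each row is 1 of the 100 members and each column 1 chemical, with the colour giving the log2 ratio of D1 to DMSO (2 CPM added to both means). Red dominates every column, is deepest in 2-tert-butyl-4-methoxyphenol with a median of 0.85, and is palest in Cetirizine Hydrochloride with a median of 0.36, where 19 members lay below 0.

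The chemicals differed in how far the members stood above DMSO at D1. The median ratio of the members was 0.85 in 2-tert-butyl-4-methoxyphenol, 0.80 in Gabapentin, 0.73 in 4-chlorophenyl methyl sulfone and 0.71 in 3,4-Dichlorophenyl isocyanate. It was 0.63 in cis-nonachlordane, 0.63 in Hydrochlorothiazide, 0.62 in Metolachlor OA, 0.58 in Fipronil carboxamide, 0.56 in 1(2H)-Phthalazinone and 0.53 in Metribuzin-DA. The lowest medians were 0.41 in Fexofenadine and 0.36 in Cetirizine Hydrochloride. Over all kept genes the medians lay between -0.09 and 0.03.

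Single members did not follow 1 order of chemicals. The gap between a member's highest and lowest ratio over the 12 chemicals had a median of 1.46 on the log2 scale, more than the median ratio itself. That gap also holds the spread among libraries, and it was not computed for all kept genes. The highest ratio fell in 2-tert-butyl-4-methoxyphenol for 35 members, in Gabapentin for 19 and in 4-chlorophenyl methyl sulfone for 10. It fell in the second chemical of some control set for 83 members, and the lowest ratio did for 40. Counts of highest and lowest ratios were not made over all kept genes, so they are a description only. The lowest ratio fell in Cetirizine Hydrochloride for 30 members, in Fipronil carboxamide for 16 and in 1(2H)-Phthalazinone for 14. In 2-tert-butyl-4-methoxyphenol the ratios ran from -1.36 to 3.53 and 41 members were above 1, while in Metribuzin-DA and Fexofenadine only 2 members each were above 1.

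Rsub_02980 had the highest median ratio, 0.96. Its level ran from 15.4 to 49.4 CPM with a median of 33.3 CPM in the 18 DMSO libraries, and from 5.14 to 125 CPM with a median of 62.7 CPM in the 36 D1 libraries. In the set of 1(2H)-Phthalazinone the DMSO libraries held 19.5, 15.4 and 18.8 CPM and the D1 libraries 47.9, 36.1 and 32.6 CPM, so the groups did not overlap. The same gene went the other way in 2-tert-butyl-4-methoxyphenol, with 23.7, 28.0 and 31.6 CPM in DMSO and 5.14, 14.5 and 9.27 CPM at D1, a ratio of -1.36. The member with the highest median was thus also the one with the lowest ratio in that chemical.

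Rsub_02879, with the next highest median of 0.93, was above DMSO in all 12 chemicals. In the set of Gabapentin its DMSO libraries held 55.0, 110 and 72.8 CPM and its D1 libraries 189, 168 and 161 CPM. In 2-tert-butyl-4-methoxyphenol it went from 6.47, 10.7 and 17.7 CPM in DMSO to 55.5, 46.5 and 31.7 CPM at D1, a ratio of 1.77. Neither pair of groups overlapped. In Fexofenadine the 5.97, 6.22 and 4.55 CPM of DMSO overlapped the 11.8, 12.0 and 4.75 CPM of D1.

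In the edgeR quasi-likelihood fit, run on all genes of each chemical with Benjamini-Hochberg adjustment, the 100 members gave 1176 gene and chemical combinations that passed the low-count filter. Of these, 362 were called higher at D1 and 1 lower, beside 2.69% higher and 2.51% lower over all genes. The rule had used this contrast, so nothing is read from that count. By member, 8 were called higher in no chemical, 13 in 1, 17 in 2, 24 in 3, 36 in 4 to 10, and 2 in all 12.

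To measure D1 in libraries that had no part in choosing genes, the rule was applied to 5 control sets at a time and the resulting 100 genes were tested in the set left out. These left-out lists shared between 72 and 83 genes with the members. Together they held 181 genes, of which 41 were in all 6 lists, and all 41 were members. Only 2 members were in none.

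The left-out lists were higher at D1 in chemicals that had not chosen them. Of 1172 gene and chemical combinations tested with edgeR, 279 were called higher at D1, which is 23.8% beside 2.69% over all genes, and 3 were called lower. The fitted change was above 0 in 991 combinations, or 84.6%, against 50.2% over all genes. Both chemicals of a left-out set were compared with the same 3 DMSO libraries, so their counts are not independent. Without replicate B in every group the count was 102, without D1 replicate B 183, and without DMSO replicate A 179. Fits without a replicate, here and below, hold fewer libraries for every gene. Their share of calls over all genes is not given.

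The left-out genes were called unequally often among the chemicals. The counts higher at D1 were largest in 2-tert-butyl-4-methoxyphenol, with 44 of 100 beside 10.4% of all genes, and in Gabapentin, with 42 of 98 beside 7.25%. They were 31 of 99 in 4-chlorophenyl methyl sulfone beside 4.33%, 30 of 99 in 3,4-Dichlorophenyl isocyanate beside 2.78%, and 27 of 99 in Metolachlor OA beside 0.562%. They were 23 of 99 in 1(2H)-Phthalazinone beside 1.17%, 23 of 98 in Fipronil carboxamide beside 3.23%, and 20 of 98 in cis-nonachlordane beside 1.05%. In these 8 chemicals at least 20 of the genes passed the test. The counts were 16 of 94 in Hydrochlorothiazide beside 0.641%, 8 of 93 in Metribuzin-DA beside 0.358%, 8 of 97 in Cetirizine Hydrochloride beside 0.328%, and 7 of 98 in Fexofenadine beside 0.0836%.

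The median log2 change of the left-out genes ran from 0.31 in Fexofenadine and 0.32 in Cetirizine Hydrochloride to 0.63 in Gabapentin and 0.77 in 2-tert-butyl-4-methoxyphenol. Without replicate B, the counts were 30 each in Gabapentin and 2-tert-butyl-4-methoxyphenol, 12 each in 4-chlorophenyl methyl sulfone and Metolachlor OA, 7 in 3,4-Dichlorophenyl isocyanate, 5 in Cetirizine Hydrochloride, and 0 to 3 in the other 6 chemicals.

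Rsub_04768 and Rsub_09770 were in all 6 left-out lists and were called higher at D1 in all 12 chemicals. Both are members, and they were named because they had the most such calls among the genes in all 6 lists. That count and their p-values at D1 are therefore a description. Rsub_04768 ran from 87.1 to 1221 CPM in the DMSO libraries and from 155 to 2486 CPM at D1, and the control sets differed in its level by more than D1 differed from DMSO. Within the set of Metribuzin-DA and 2-tert-butyl-4-methoxyphenol its DMSO libraries held 287, 258 and 334 CPM. Its D1 libraries held 634, 594 and 416 CPM in Metribuzin-DA and 1025, 713 and 890 CPM in 2-tert-butyl-4-methoxyphenol. All 6 lay above the 3 DMSO libraries. The log2 change was 0.91 (SE 0.13, adjusted p = 0.000179, edgeR) in Metribuzin-DA and 1.68 (SE 0.15, adjusted p = 3.79e-10, edgeR) in 2-tert-butyl-4-methoxyphenol. Over the 12 chemicals its log2 change ran from 0.48 to 1.68 with a median of 0.85.

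Rsub_09770 ran from 409 to 2054 CPM in DMSO and from 606 to 3455 CPM at D1. Its DMSO libraries in the set of Metribuzin-DA held 625, 662 and 894 CPM, and the D1 libraries of 2-tert-butyl-4-methoxyphenol held 1997, 1993 and 1735 CPM. The groups did not overlap, and the log2 change was 1.495 (SE 0.12, adjusted p = 1.64e-11, edgeR). In Fipronil carboxamide the change was 0.39 (SE 0.12, adjusted p = 0.0401, edgeR), and the D1 libraries at 1684, 1809 and 1305 CPM overlapped the DMSO libraries at 966, 1338 and 1317 CPM. Without replicate B, Rsub_04768 was called in 5 of the 12 chemicals and Rsub_09770 in 3, and without DMSO replicate B Rsub_04768 was called in 7.

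Genes of the left-out lists were also called higher than DMSO at D2 to D7. Of 1172 combinations, 143 were called higher at D2 in edgeR beside 1.26% of all genes, and 93 at D3 beside 0.922%. The counts were 56 at D4 beside 0.608%, 67 at D5 beside 0.685%, 80 at D6 beside 0.871%, and 84 at D7 beside 0.507%. The D4 count was the lowest, and D5, D6 and D7 lay between it and D3. For the mean of D2 to D7, 157 were called higher beside 1.73%, and 3 lower. That count was 42 without replicate B. It was 69 with DMSO replicate A left out, and 101 with DMSO replicate B left out.

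Of these 157 calls over D2 to D7, 153 came from the second chemicals of the sets, or 97.5%. Over all genes the split was alike, with 1818 of 1930 calls in the second chemicals, or 94.2%. In edgeR, 18 left-out genes were called higher in Gabapentin beside 4.69% of all genes, 26 in 2-tert-butyl-4-methoxyphenol beside 1.72%, and 36 in 4-chlorophenyl methyl sulfone beside 7.84%. The count was 15 in Fipronil carboxamide beside 0.492%, 35 in cis-nonachlordane beside 3.74%, and 23 in 3,4-Dichlorophenyl isocyanate beside 1.09%. In the first chemicals it was 2 in Cetirizine Hydrochloride beside 0.262% and 2 in Metolachlor OA beside 0.053%. It was 0 in 1(2H)-Phthalazinone beside 0.249%, in Metribuzin-DA beside 0.119%, in Hydrochlorothiazide beside 0.541% and in Fexofenadine beside 0%. In these 4 between 5 and 13 genes had an unadjusted p below 0.05, and the DESeq2 count was 0. Without replicate B the counts in the 6 second chemicals, in the order just given, were 8, 9, 15, 2, 4 and 1. The difference between the chemicals of a set was tested directly, as follows.

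**Figure D2:**
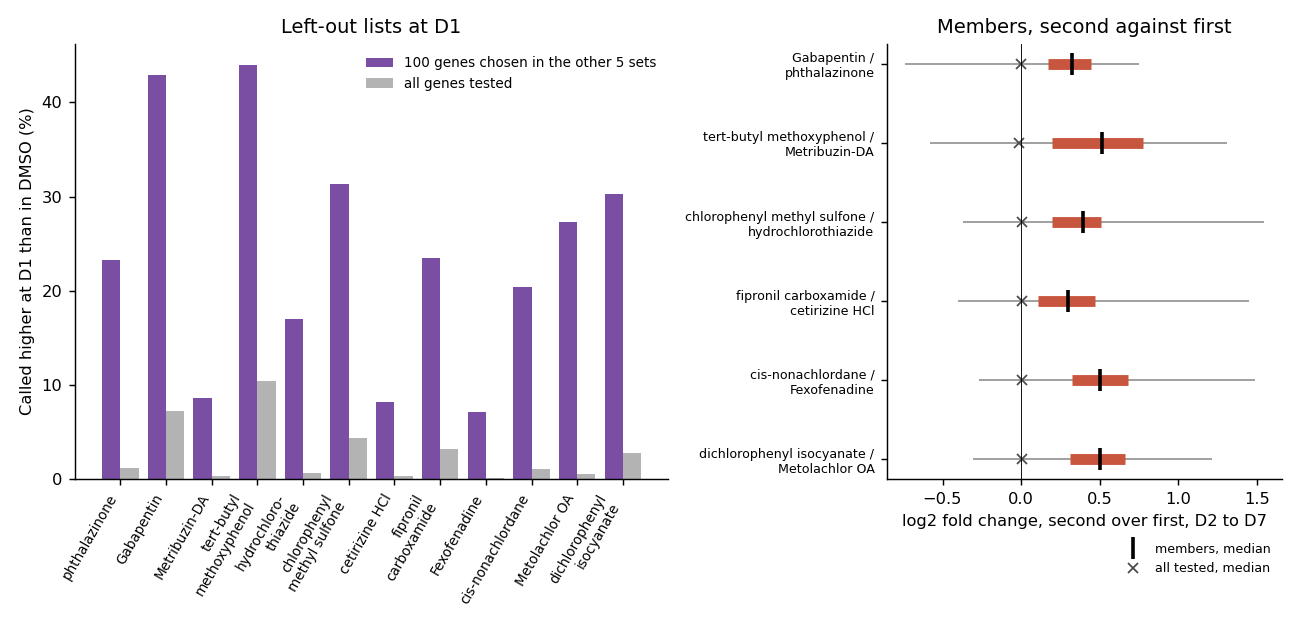
Left, the percentage of genes called higher at D1 than in DMSO in each chemical, for the 100 genes chosen in the other 5 control sets and for all genes tested. Right, for each control set, the log2 fold change of the members between the second and the first chemical over D2 to D7, with the range as a thin line, the quartiles as a thick bar and the medians as ticks. All 6 member medians lie between 0.30 and 0.52, and the crosses for all genes lie between -0.02 and 0.01.

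In every control set the median member was higher in the second chemical than in the first over the levels D2 to D7, in libraries the rule had not used. The comparison took the mean of D2 to D7 in 18 libraries of each chemical, with no DMSO or D1 library in the fit. Of 595 gene and set combinations tested in edgeR, 366 were called higher in the second chemical, or 61.5%, beside 10.1% of all genes. There were 5 called lower, also beside 10.1% of all genes. The members had been chosen partly on D1 libraries of these same chemicals. In the left-out lists, chosen without the set tested, 322 of 592 combinations were called higher in the second chemical, or 54.4%, and 9 lower. The median log2 difference of the members lay between 0.30 and 0.52, while that of all genes lay between -0.02 and 0.01.

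All 6 sets had more members called higher than their share of all genes. The members called higher were 49 of 99 in Gabapentin over 1(2H)-Phthalazinone beside 5.67% of all genes, and 62 of 100 in 2-tert-butyl-4-methoxyphenol over Metribuzin-DA beside 14.7%. They were 61 of 100 in 4-chlorophenyl methyl sulfone over Hydrochlorothiazide beside 12.1%, and 45 of 99 in Fipronil carboxamide over Cetirizine Hydrochloride beside 3.93%. They were 74 of 98 in cis-nonachlordane over Fexofenadine beside 12.7%, and 75 of 99 in 3,4-Dichlorophenyl isocyanate over Metolachlor OA beside 11.1%. The share was lowest in the set with Fipronil carboxamide, which also had the fewest calls over all genes. Without replicate B the count over the 6 sets was 241, and in the sets in this order it was 36, 48, 36, 24, 53 and 44. By single levels, 61 of 595 gene and set combinations were called higher in the second chemical at D2, or 10.3%, beside 1.24% of all genes. At D7 it was 93 of 595, or 15.6%, beside 0.672%.

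The 2 chemicals of a set differ in identity, and the labels do not say that the same level name stands for the same concentration in both. Chemical and concentration cannot be told apart in this comparison. The chemical and the handling of its libraries, such as the plate, cannot be told apart either.

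Members differed in how many sets showed the difference. It was called in all 6 sets for 24 members, in 5 for 14, in 4 for 20, in 3 for 12, in 2 for 10, in 1 for 16 and in none for 4. The same count by gene was not made over all genes, so it is a description only. Of the 24, Rsub_02329 and Rsub_07490 had the largest median log2 differences, 0.76 and 0.69.

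Rsub_07490 held 63.4 to 160 CPM with a median of 89.6 CPM in the 18 D2 to D7 libraries of Metribuzin-DA. In 2-tert-butyl-4-methoxyphenol it held 171 to 358 CPM with a median of 215 CPM, and the 2 ranges did not overlap. The log2 difference was 1.25 (SE 0.07, adjusted p = 1.85e-19, edgeR). The smallest of its 6 differences was 0.42 (SE 0.05, adjusted p = 4.1e-08, edgeR), between Fipronil carboxamide at 279 to 424 CPM and Cetirizine Hydrochloride at 202 to 311 CPM, where the ranges overlapped.

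Rsub_02329 held 16.0 to 64.1 CPM with a median of 29.6 CPM over D2 to D7 of Fexofenadine, and 50.3 to 102 CPM with a median of 74.8 CPM in cis-nonachlordane. These ranges overlapped in part, and the log2 difference was 1.18 (SE 0.12, adjusted p = 1.05e-10, edgeR). Its smallest difference was 0.52 (SE 0.09, adjusted p = 4.06e-05, edgeR) in Gabapentin over 1(2H)-Phthalazinone. Without replicate C it was not called in the set of Hydrochlorothiazide, and without replicate B not in that of Metolachlor OA.

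A few members went against the rest. Rsub_02655 was lower in 2-tert-butyl-4-methoxyphenol, at 60.6 to 173 CPM with a median of 109 CPM, than in Metribuzin-DA, at 95.2 to 288 CPM with a median of 154 CPM (log2 difference -0.58, SE 0.09, adjusted p = 4.53e-06, edgeR). In Gabapentin over 1(2H)-Phthalazinone the same gene was higher by 0.39 (SE 0.08, adjusted p = 0.000385, edgeR), so its direction turned between sets. It was also called lower in 3,4-Dichlorophenyl isocyanate than in Metolachlor OA (-0.31, SE 0.11, adjusted p = 0.0424, edgeR), but not without replicate B or C, with library totals or in DESeq2. Rsub_12042 was called lower in 4-chlorophenyl methyl sulfone than in Hydrochlorothiazide (-0.37, SE 0.13, adjusted p = 0.0321, edgeR). Without replicate A that difference was 0.18, and with library totals or in DESeq2 it was not called.

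The members were also summarised per library. For each library, log2(CPM + 2) of each member was centred on the gene's mean over the 45 libraries of its control set, and the median over the 100 members was taken. At D2 to D7 this median was higher in the second chemical in all 18 pairs of the same level and letter in each of the 6 sets. In the set of Fexofenadine and cis-nonachlordane, for example, the library medians of the first ran from -0.37 to -0.06 with a median of -0.26, and those of the second from -0.01 to 0.42 with a median of 0.28. In 4 of the 6 sets the library medians of the first and the second chemical over D2 to D7 overlapped in part. The same medians over the other kept genes lay between -0.09 and 0.07 in all libraries. The DMSO libraries lay low, from -0.54 to -0.08, and so near the first chemicals at D4 to D7. The rule had used these DMSO libraries as the divisor, which favours genes low in them, so their place is a description only.

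**Figure D3:**
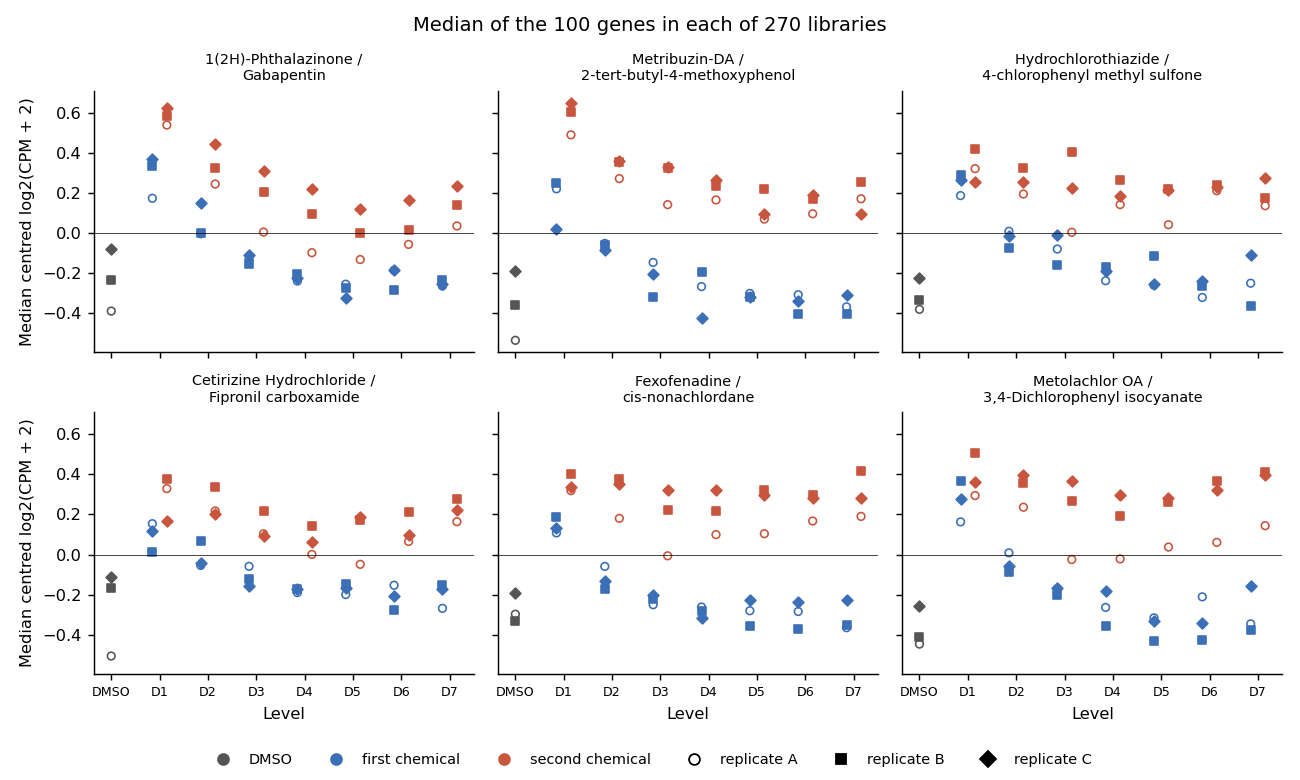
Each point is 1 library, placed by level and by the median over the 100 members of log2(CPM + 2) after centring each gene on its mean over the control set. At D2 to D7 each library of a second chemical lies above the library of the first chemical with the same set, level and letter. All 36 D1 libraries lie above the DMSO libraries of their set. The rule chose the members with these D1 and DMSO libraries, so that separation is a description only. The open circles (replicate A) are often the lowest of their group in DMSO and in the second chemicals.

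The letters of the replicates moved with these medians. In DMSO, replicate A was the lowest of the 3 in 5 of the 6 sets and replicate C the highest in all 6. Over D2 to D7, replicate A was the lowest in 33 of 36 groups of the second chemicals and the highest in none. In the first chemicals replicate A was the lowest in 12 groups, replicate B in 19 and replicate C in 5 of 36. The part of the letters in the differences between levels and chemicals was not tested beyond leaving each letter out and fitting it as a block.

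By level name, the members' profile differed between the first and the second chemicals, given as log2 ratios to DMSO and without a test, since DMSO had chosen the members. In the first chemicals the median ratio ran from 0.36 to 0.63 at D1, from 0.16 to 0.31 at D2 and from 0.05 to 0.23 at D3. It lay between -0.09 and 0.17 from D4 to D7, near the DMSO level. In the second chemicals it ran from 0.58 to 0.85 at D1 and from 0.52 to 0.70 at D2, and it was 0.19 to 0.54 at D5 and 0.34 to 0.69 at D7. In these chemicals no level had a median at or below 0.

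**Figure D4:**
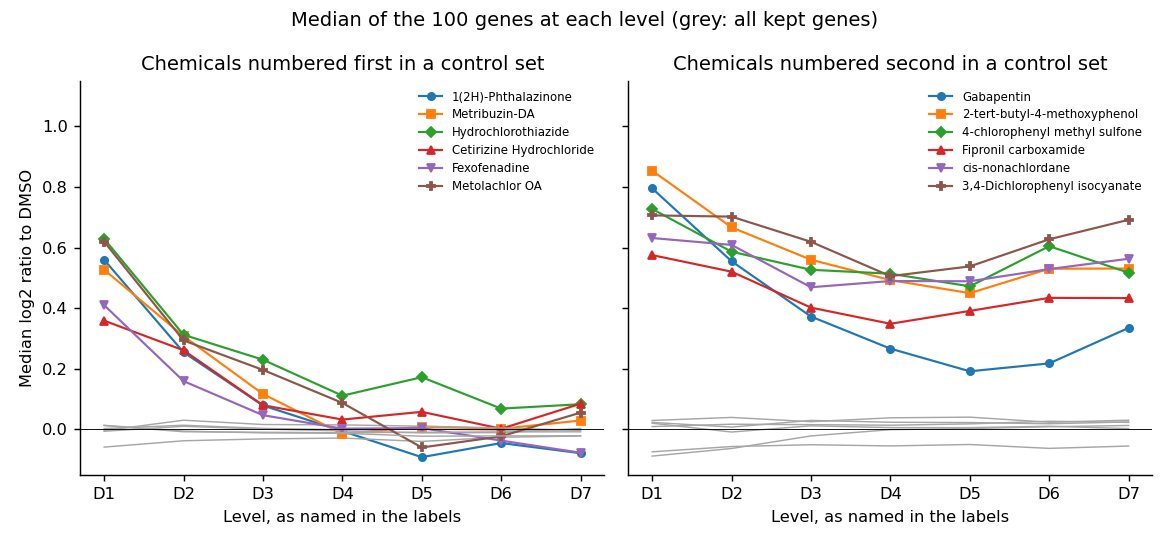
Median log2 ratio of the 100 members to DMSO at each named level (2 CPM added to both means), with 1 coloured line per chemical and grey lines for all kept genes. Lines join levels of 1 chemical only to guide the eye. The first chemicals (left) lie between -0.09 and 0.17 from D4 to D7, while the second chemicals (right) stay between 0.19 and 0.69 from D4 to D7.

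Among the levels the rule had not used, D2 most often held a member's highest mean, but not by the same margin in every chemical. In 4-chlorophenyl methyl sulfone 26 members had it at D2 and 22 at D6, against 17.8% and 16.7% of kept genes. The members' median ratio to DMSO there was 0.59 at D2 and 0.60 at D6. A member's highest mean of D2 to D7 was at D2 in 299 of 600 member and chemical combinations of the first chemicals and in 236 of 600 of the second, against 20.5% and 18.6% of kept genes. In the second chemicals 120 had it at D7, against 16.7% of kept genes. Between D5 and D7, 60 to 75 of the members were higher at D7 in each second chemical, against 48.0% to 51.6% of kept genes. In the first chemicals 39 to 64 were, against 48.3% to 52.4% of kept genes.

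The D2 excess was tested in edgeR as D2 minus the mean of D3 to D7, on the 18 libraries of each chemical with DMSO and D1 left out. Of 1169 member and chemical combinations, 63 were called higher at D2, beside 0.437% of all genes, and 1 lower, beside 0.221%. The fitted difference was above 0 in 896, or 76.6%, against 51.0% over all genes. In the left-out lists, 59 of 1162 combinations were called higher at D2, beside the same 0.437% of all genes, and 2 lower. The median difference of the members ran from 0.07 in cis-nonachlordane to 0.28 in 1(2H)-Phthalazinone, while over all genes it lay between -0.01 and 0.01. These sizes are smaller than the differences between the chemicals of a set.

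The calls sat in a few chemicals. There were 24 of 100 members called higher at D2 in 2-tert-butyl-4-methoxyphenol beside 3.38% of all genes, 17 of 97 in 1(2H)-Phthalazinone beside 0.295%, and 11 of 98 in Gabapentin beside 0.441%. There were 4 of 99 in 3,4-Dichlorophenyl isocyanate beside 0.887% and 4 of 95 in Cetirizine Hydrochloride beside 0.0661%. There was 1 of 94 in Metribuzin-DA beside 0.022%, 1 of 95 in Hydrochlorothiazide beside 0.0112%, and 1 of 98 in Fipronil carboxamide beside 0.0894%. The edgeR count was 0 in 4-chlorophenyl methyl sulfone, Fexofenadine and cis-nonachlordane, beside 0% of all genes in each. There 10, 18 and 9 members had an unadjusted p below 0.05, and the DESeq2 count was 0. It was also 0 in Metolachlor OA beside 0.0107%, where 29 had an unadjusted p below 0.05 and the DESeq2 count was 3. By member, 60 were called in no chemical, 23 in 1, 11 in 2 and 6 in 3. This count by gene was not made over all genes and is a description only.

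The D2 counts depended on single replicates. Over the 12 chemicals the count was 16 without replicate B, 41 without replicate C, 37 without D2 replicate A, 31 without D2 replicate B and 39 without D2 replicate C. In 1(2H)-Phthalazinone and in Gabapentin it was 0 without replicate B, and in 2-tert-butyl-4-methoxyphenol 16. In Gabapentin it was also 0 without D2 replicate C and 2 without D2 replicate B. In 1(2H)-Phthalazinone it was 6 without replicate C and 1, 4 and 7 without D2 replicates A, B and C. Whether the members lost more calls than all genes did in these smaller fits was not tested.

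Of the 6 members called at D2 in 3 chemicals, Rsub_11009 and Rsub_04768 had the largest median log2 differences over the chemicals. Both were called in the same 3. In 2-tert-butyl-4-methoxyphenol Rsub_11009 held 265, 266 and 340 CPM at D2 and 173 to 231 CPM in the 15 libraries of D3 to D7, without overlap (log2 difference 0.62, SE 0.09, adjusted p = 3.95e-05, edgeR). In Gabapentin it held 503, 515 and 516 CPM at D2 and 318 to 479 CPM at D3 to D7, again without overlap (0.43, SE 0.08, adjusted p = 0.00512, edgeR). In 1(2H)-Phthalazinone its D2 libraries held 383, 399 and 364 CPM and D3 to D7 held 222 to 361 CPM (0.53, SE 0.10, adjusted p = 0.00588, edgeR). All 9 of these D2 libraries lay above every D3 to D7 library of the same chemical. The calls in Gabapentin and 1(2H)-Phthalazinone were lost without replicate B, and also without D2 replicate C in Gabapentin and without replicate C, D2 replicate A or D2 replicate B in 1(2H)-Phthalazinone.

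Rsub_04768 held 824, 594 and 647 CPM at D2 of 2-tert-butyl-4-methoxyphenol and 386 to 637 CPM at D3 to D7, with overlap (0.53, SE 0.10, adjusted p = 0.000653, edgeR). In Gabapentin its difference was 0.25 (SE 0.07, adjusted p = 0.0478, edgeR) and was not called without any 1 of the 3 replicates. Its difference was below 0 only in 3,4-Dichlorophenyl isocyanate (-0.16, SE 0.12, adjusted p = 0.588, edgeR).

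**Figure D5:**
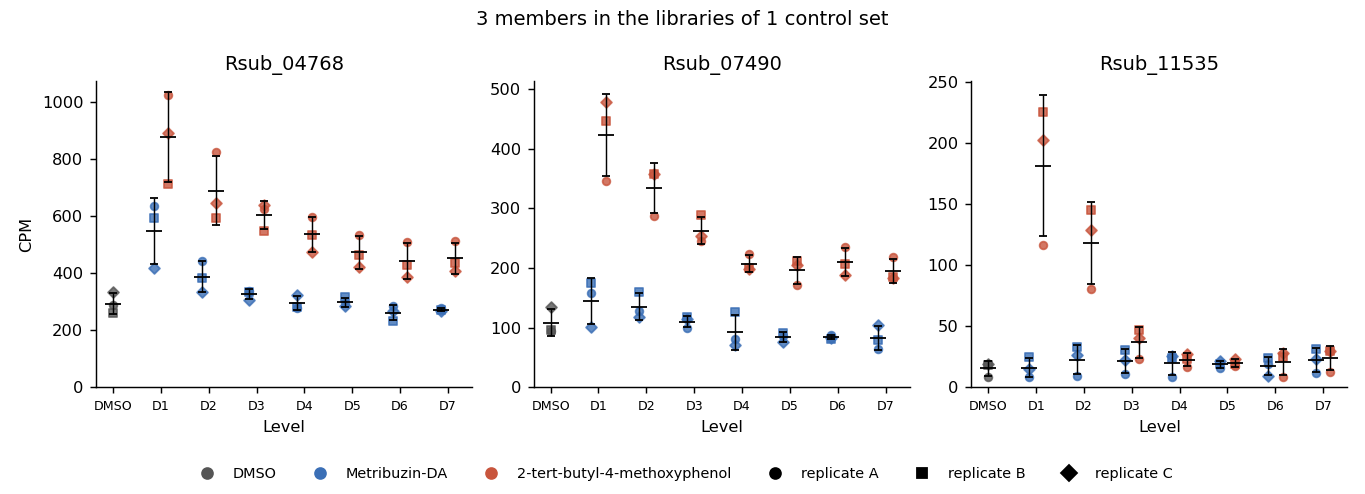
CPM of 3 members in the 45 libraries of the set of Metribuzin-DA and 2-tert-butyl-4-methoxyphenol, with points for libraries and black bars for the mean and SD of 3. Rsub_04768 and Rsub_07490 are higher in 2-tert-butyl-4-methoxyphenol at every level, while Rsub_11535 is above 80 CPM there at D1 and D2 and under 50 CPM at D3 to D7.

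Whether the D2 excess itself differs between the chemicals of a set was tested as an interaction in the fit of 36 libraries. Of 595 combinations, 7 were called in edgeR, or 1.18%, beside 0.304% of all genes in either direction. DESeq2 called 8. In the set of Metribuzin-DA and 2-tert-butyl-4-methoxyphenol, 6 of 100 members were called, all with a larger D2 excess in the second, beside 1.63% of all genes in either direction. The 2 with the largest difference, Rsub_11535 and Rsub_08773, were chosen after their values were seen. Rsub_11535 held 80.01, 145 and 128 CPM at D2 of 2-tert-butyl-4-methoxyphenol and 8.39 to 46.5 CPM at D3 to D7, while Metribuzin-DA held 9.001, 32.7 and 26.2 CPM at D2. The difference of the log2 excesses was 2.21 (SE 0.41, adjusted p = 0.000391, edgeR). Rsub_08773 held 109, 136 and 95.7 CPM at D2 of 2-tert-butyl-4-methoxyphenol, 5.69 to 48.3 CPM at its D3 to D7, and 27.0, 12.0 and 11.2 CPM at D2 of Metribuzin-DA (2.14, SE 0.39, adjusted p = 0.000242, edgeR). In both genes the D2 libraries of 2-tert-butyl-4-methoxyphenol lay above all its D3 to D7 libraries, and both calls were lost without replicate B. The other 4 members had differences of 0.82 to 1.87.

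In the set of Metolachlor OA and 3,4-Dichlorophenyl isocyanate 1 of 99 members, Rsub_09796, differed the other way, beside 0.105% of all genes in either direction. It held 59.6, 65.0 and 53.1 CPM at D2 of 3,4-Dichlorophenyl isocyanate and 76.9 to 119 CPM at D3 to D7, so its D2 libraries were the lowest (-0.68, SE 0.15, adjusted p = 0.0187, edgeR). In Metolachlor OA it held 71.8, 68.5 and 66.2 CPM at D2 and 36.1 to 73.3 CPM at D3 to D7 (0.45, SE 0.14, adjusted p = 0.215, edgeR). The difference of the excesses was -1.13 (SE 0.20, adjusted p = 0.00245, edgeR). This gene was called higher at D2 in 1(2H)-Phthalazinone, Hydrochlorothiazide and Cetirizine Hydrochloride, with log2 differences of 0.44, 0.69 and 0.63. Its call in the interaction was lost without replicate B, replicate C, D2 replicate A or D2 replicate C. Without replicate B the count over the 6 sets was 3, and without replicate A it was 12.

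Some other values of the members are given as a description. Their means in DMSO varied between control sets by a median of 1.40 on the log2 scale, with 72 of 100 above 1, against 0.71 and 23.6% for kept genes. These are levels in DMSO libraries, which the rule used both for the limit of 5 CPM and as the divisor within each set. Within groups of D2 to D7 the SD of log2(CPM + 2) had a median of 0.38 over members and 0.31 over kept genes. Over the 216 libraries of D2 to D7, deviations from group means correlated between members with a median r of 0.05 over 4950 pairs, and 16.2% of pairs were above 0.2, against 0.00 and 3.34% over kept gene pairs. These correlations are weak and share libraries and depth, so they are a description only. On the list of identifiers, 2 of 100 members had another member within 1 place, against 1.45% of other kept genes, a near share. Within 3 places 8 of 100 had one, against 4.45%. Nothing is read from these counts.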

How the data were processed

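Gene expression was measured by 3′ mRNA sequencing, and the authors deposited unnormalized counts for each gene in 12 tables, 1 per chemical. Per the submitters' processing notes, the reads went through STAR 2.7.10a, featureCounts 2.0.6, fastp 0.23.2 and SAMtools 1.15.1, listed in no order. Build, annotation and strand setting are not given in the sources used, nor is any collapsing of reads by molecular identifier, so counts may include PCR copies. Near-identical gene copies and overlapping ends could share or lose reads. All columns matched a sample by name. The DMSO libraries stand in both tables of their control set and were used once. They were identical except for 1 gene by 1 count in 2 libraries. Chi-square per degree of freedom ran from 1.62 to 9.70 over the 270 pairs of libraries within groups, more than sampling noise gives, so none was taken as a duplicate.

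CPM were computed from the deposited counts and library totals. The 100 members and all lists were chosen with earlier results of these data known. Tests were run in edgeR 4.0.16 (R 4.3.3) on the counts of all genes passing filterByExpr, with TMM scaling, glmQLFit and glmQLFTest, and Benjamini-Hochberg adjustment over all genes of a fit. A call is an adjusted p below 0.05. The standard error (SE) of a log2 change was taken as its size over the square root of F. As a list, the members were tested only in D2 to D7 libraries, and their calls at D1 against DMSO are a description. Members that were also in a left-out list were among the genes tested at D1 in the set left out. D2 against D3 to D7 was fitted on 18 libraries per chemical, and the 2 chemicals of a set were compared on 36 libraries. For left-out lists, the rule was run on 5 control sets and its 100 genes tested in the remaining set, on the 24 libraries of each chemical. Their calls were also counted in the fits on 18 and 36 libraries. Procedures were checked on simulated counts.

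Genes named are the 2 members with the highest median ratio at D1 and, per comparison, the 2 called in most chemicals or sets in each direction, with ties settled by the larger size of the median log2 change. For the test of differing D2 excess, 3 genes were chosen after their values were seen. Other choices tried were RLE scaling, library totals, other low-count filters, DESeq2 1.42.0, the replicate letter as a block, leaving out replicates, and other settings of the rule. Restricting the rule to 6 chemicals was added after seeing the data. Gene lists by function, gene names, locations and sequences were not used here, since the files pair the identifiers with none.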

Additional observations from a re-analysis of the deposited data

Results flagged for a closer look

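The excess at D2 over D3 to D7 differed between the 2 chemicals of a control set, by the edgeR interaction test, for 6 of 100 members, beside 1.63% of all genes, in the set of Metribuzin-DA and 2-tert-butyl-4-methoxyphenol, all larger in the second. It differed for 1 of 99 members, Rsub_09796, beside 0.105% of all genes, in the set of Metolachlor OA and 3,4-Dichlorophenyl isocyanate, smaller in the second.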

How the results depend on the processing

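Totals of calls over chemicals or sets kept within 1.5 times under RLE scaling, library totals, other low-count filters and DESeq2. Fitting the letter as a replicate block moved the D2 excess from 63 to 114, second against first from 366 to 378, and the interaction from 7 to 10. It moved the left-out lists at D1 from 279 to 370, and over D2 to D7 from 157 to 224. The labels do not say whether the letters pair the samples. Of 1008 same-letter pairs 285 had deviations correlated above 0.1, and in no chemical did every pair. The median r of same-letter pairs ran from 0.03 in Cetirizine Hydrochloride to 0.12 in 2-tert-butyl-4-methoxyphenol. That of other pairs ran from -0.06 in Fexofenadine to -0.01 in Fipronil carboxamide. With DMSO counted in both chemicals, 252 of 288 libraries were closest to their own letter. Deviations thus went with the letter to some degree in every chemical, and the main fits took no account of the letter. This comes from the data only, since what the letters stand for is not in the labels. Leaving out replicates gave 16 to 52 for the D2 excess, 241 to 369 for second against first, 3 to 12 for the interaction, 102 to 275 for the left-out lists at D1, 42 to 148 over D2 to D7, and 56 to 81 of 100 members kept by the rule. The D2 excess was 32 against D7 alone and 31 for D2 to D4 against D5 to D7. Second against first was 61 at D2 alone and 93 at D7 alone. The rule on the first chemicals only kept 58 members and on the second only 52. Other settings of the rule kept 67 to 95. The difference of Rsub_12042 in 4-chlorophenyl methyl sulfone over Hydrochlorothiazide ran from -0.74 to 0.18 over the left-out replicates and was above 0 without replicate A. Of 594 alternatives for the counts of single chemicals or sets, 448 kept within 1.5 times and 146 moved further. Of 756 alternatives for named genes, 646 kept the call, 109 lost it and 1 reversed. The causes were not tested, and counts without a replicate stand without the share of all genes in the same fits. Library totals near 1083755 counts leave members near 5 CPM with few counts.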
